A study of Rattus norvegicus with 44 samples.

Results

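Choroid plexus of rats that had received neurotoxic doses of amphetamine (AMPH) was compared directly with choroid plexus of rats whose body temperature had been raised by warm surroundings alone (EIH, environmentally-induced hyperthermia), both collected 3 h after exposure. The arrays were chosen by their tissue, treatment and time labels, and they are 8 of the 44 arrays of the series: 4 pools from AMPH rats and 4 pools from EIH rats. All rats were 3-month-old male Sprague-Dawley rats of the NCTR strain, and each pool joined the choroid plexus of 3 of them, so a difference between single rats cannot be seen. The 8 pools hold 24 rats, no rat number is shared among them, while AMPH replicate 2 and EIH replicate 2 each contain a rat number that is also listed in a 1 day pool of choroid plexus. Both of those 1 day pools are labelled EIH, so for AMPH replicate 2 the 2 entries for this number disagree on the treatment. Among these rats, 6 also gave a blood sample at 3 h, and the tissue label of the blood samples names striatum as well as blood. The 4 saline pools of 3 h serve below mainly as a level beside the values. They do not enter the main test between AMPH and EIH, which uses the 8 pools alone. Saline pools enter that comparison only in alternative fits, over all choroid plexus pools of 3 h or over all choroid plexus pools of both times. The stated purpose was to learn which damage and protective responses the tissue makes to each exposure. The sources used here give neither drug doses nor body temperatures.

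The choroid plexus is a fringe of cuboidal epithelium over a leaky capillary bed in the brain ventricles, and it secretes cerebrospinal fluid, carries thyroid hormone and folate into it and forms the barrier between blood and that fluid. Heat unfolds proteins, which frees heat shock factor 1 to bind heat shock elements before the genes of the Hsp70, Hsp90, Hsp40 and small heat shock protein families. Amphetamine releases dopamine, noradrenaline and serotonin and itself raises body temperature, so in rats a toxic dose joins a drug exposure to a heat load.

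The deposited values are intensities on a linear scale, taken to log2 here. Median intensity was 141.9 to 142.7 on the AMPH arrays and 142.1 to 142.6 on the EIH arrays, and 1.57% to 3.52% of cells were blank on AMPH arrays against 1.86% to 3.89% on EIH arrays. The highest signals pile up just below a log2 value of 15.99, and 24 genes lay next to that value in all 8 pools, among them Ttr and Igf2, so a change in these could not have been seen. Markers of the labelled tissue were high in every pool. The inward rectifier channel gene Kcnj13 lay at 15.16 to 15.40 in AMPH pools and 14.81 to 15.24 in EIH pools, and the folate receptor gene Folr1 at 14.10 to 14.34 in AMPH pools and 14.03 to 14.22 in EIH pools. In bulk tissue fewer cells of a type and less RNA per cell cannot be told apart.

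No gene separated AMPH from EIH choroid plexus after adjustment for multiple tests. With limma over the 8 pools, 0 of 10273 genes (0%) had a Benjamini-Hochberg adjusted p under 0.05, and the smallest adjusted p was 0.0616. At an unadjusted p under 0.05 there were 711 genes, 347 higher in AMPH (3.38%) and 364 lower (3.54%). Among the 9417 genes with a value in all 8 pools, all 4 AMPH pools lay above all 4 EIH pools for 206 genes (2.19%) and below them for 187 (1.99%). Other settings gave 0 or 1 called gene (Piwil1, described below), except that 4 were called without EIH replicate 4 (Cst5, Macrod1, Myog and Slco1b2). Macrod1, Myog and Slco1b2 were also associated with a score of probes that take 2 levels across arrays, described below. Every p-value here sets a difference against the scatter of pools.

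For most genes the data bound the difference. The 95% interval of the log2 difference lay within 2-fold in either direction for 7133 genes (69.4%), and the median interval reached 0.409 to either side. The median standard deviation between pools was 0.266 in AMPH and 0.202 in EIH, and it was larger in AMPH for 6004 of 9417 genes. Pearson correlation across 9059 genes was 0.958 to 0.981 between an AMPH and an EIH pool, against 0.96 to 0.98 among AMPH pools and 0.975 to 0.981 among EIH pools. A difference of over 2-fold was measured for 348 genes, of which 260 lay in the lowest of 4 level classes of equal size, where the mean log2 intensity is at most 5.31. In that class the interval lay within 2-fold for 354 of 2568 genes, against 2466 of 2569 in the highest class.

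**Figure D1:**
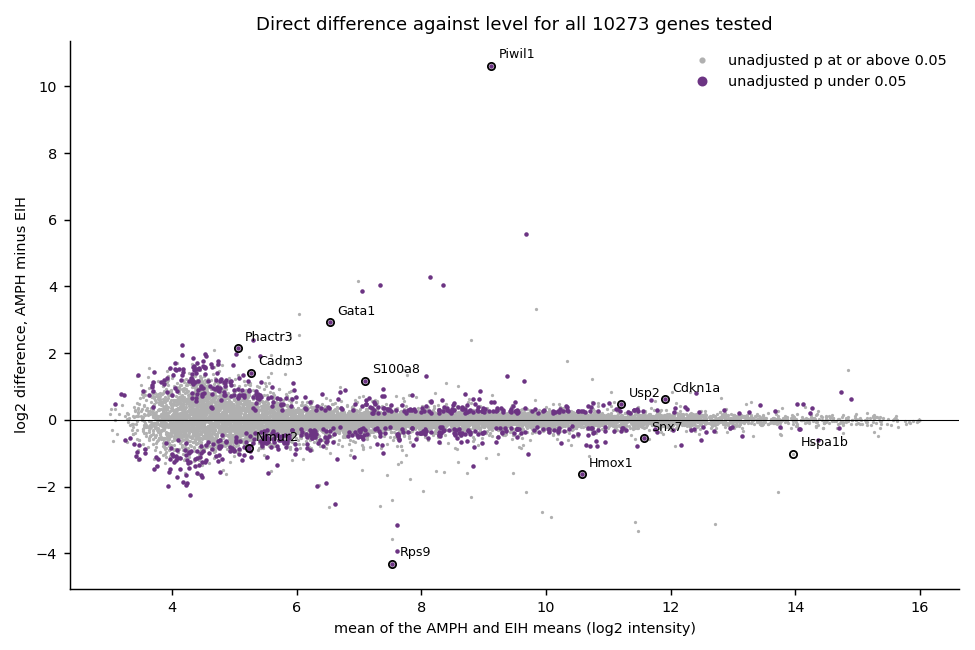
Log2 difference (AMPH minus EIH, vertical axis) against the mean of both group means (log2 intensity, horizontal axis) for all 10273 genes tested, with 711 genes at an unadjusted p under 0.05 in purple. Spread is widest at low levels, and no marked gene has an adjusted p under 0.05.

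Scores of the stress lists lay above saline in most pools of both groups, and the AMPH and EIH pools overlapped. A score per pool was taken as the mean over a list's members of the log2 value minus the saline mean. For the Hsp70 and Hsp110 list it was 0.96, 1.29, 1.44 and 0.88 in AMPH pools (replicates 1 to 4) and 1.5, 1.45, 0.71 and 1.45 in EIH pools. The immediate early list gave 1.18, 1.83, 1.33 and 0.45 in AMPH pools and 1.17, 1.84, 0.49 and 1.23 in EIH pools. AMPH replicate 4 and EIH replicate 3 were the lowest pools of their groups in both lists. AMPH replicate 4 was also at 0 for the endoplasmic reticulum (ER) stress list, where the other AMPH pools lay at 0.92 to 1.19 and the EIH pools at 0.76 to 1.23. Limma's array weights, which fall as a pool departs from its group, were lowest for AMPH replicate 4 (0.404) and ranged up to 1.53. Saline replicate 4, which enters every saline mean given here, also stood apart. Its median correlation with the AMPH and EIH pools was 0.916, against 0.955 to 0.972 for the other saline pools, and 6.37% of its cells were blank.

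**Figure D2:**
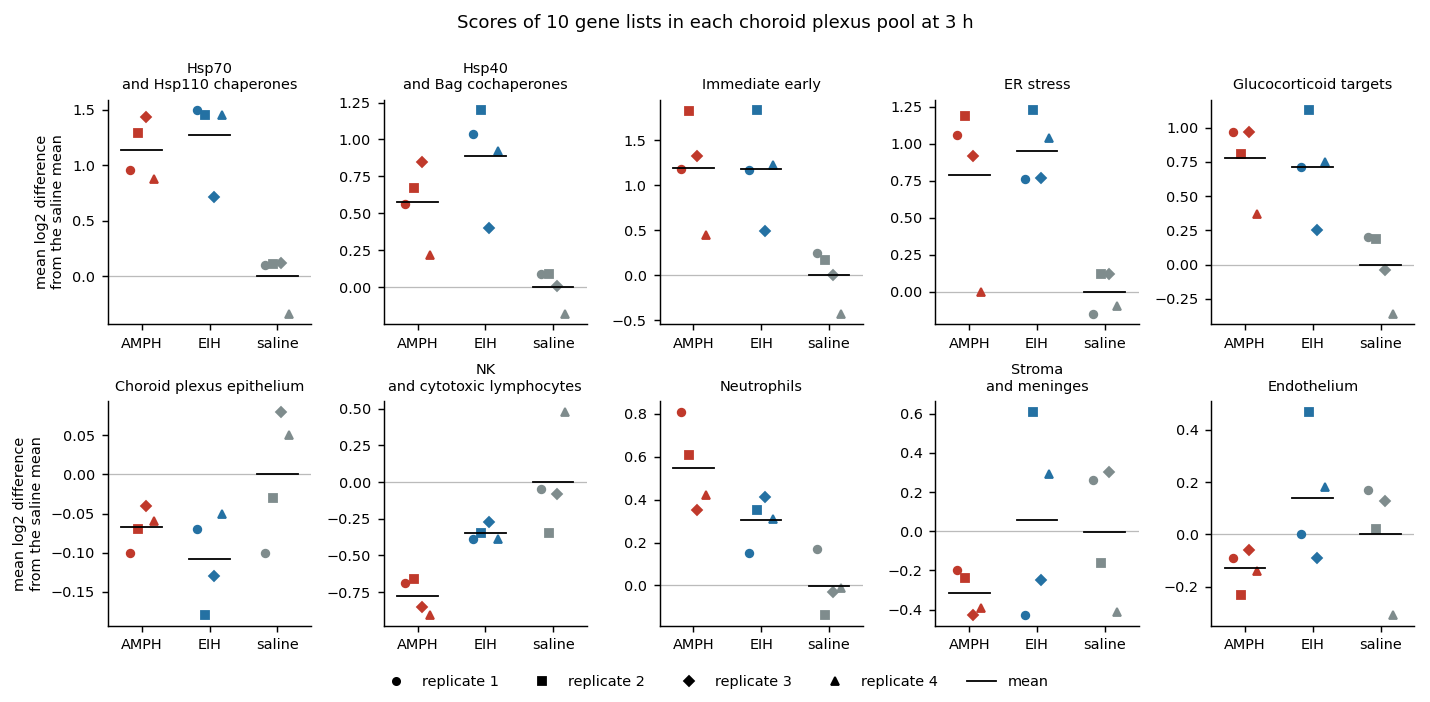
Scores of 10 gene lists (mean log2 difference from the saline mean, vertical axis) in each AMPH, EIH and saline pool at 3 h, with a line at each group's mean and 1 symbol per replicate. AMPH and EIH pools overlap in every panel except that of natural killer (NK) and cytotoxic lymphocytes, where AMPH lies at -0.91 to -0.66 and EIH at -0.39 to -0.27.

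Among inducible Hsp70 genes, Hspa1b, the chaperone most strongly induced by heat, had 12.12, 14.06, 15.56 and 12.11 in AMPH pools and 15.63, 15.27, 11.01 and 15.98 in EIH pools. Saline pools lay at 7.25 to 8.40. The EIH pools other than replicate 3 were near the top of the scale, and the groups overlapped. The difference was -1.01 ± 1.27 (SE, n = 4 and 4; adjusted p = 0.913 by limma), with an interval of -3.98 to 1.95, so neither equality nor a several-fold difference is settled for this gene. Hsph1, the Hsp110 nucleotide exchange factor, had 11.43, 11.72, 11.49 and 9.88 in AMPH pools and 11.94, 11.90, 10.89 and 11.64 in EIH pools, a difference of -0.46 ± 0.44. Hspa8, the constitutive Hsc70, had 13.83, 14.18, 14.24 and 14.67 in AMPH pools and 14.33, 14.88, 14.03 and 14.49 in EIH pools, a difference of -0.21 ± 0.23. Of the 9 Hsp70 and Hsp110 genes tested, 1 was higher in AMPH at an unadjusted p under 0.05 (11.1%, against 3.38% of all genes), the testis-rich Hspa2 (0.27 ± 0.11). In this list 0 were lower, and the median was 0.00 against 0.01 over all genes.

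The stretch of 250 bases before the transcription start is shown for Hspa8, Hsph1 and Hspe1, because they are 3 of the 4 chaperone genes whose window holds a canonical heat shock element, the site through which heat acts on this family. Sequences are from RefSeq (GRCr8), 5′ to 3′ on the gene's strand, and capitals mark GAANNTTCNNGAA or its reverse complement TTCNNGAANNTTC, searched on both strands with overlapping matches counted.
Hspa8, chr8:50080264-50080513, plus strand: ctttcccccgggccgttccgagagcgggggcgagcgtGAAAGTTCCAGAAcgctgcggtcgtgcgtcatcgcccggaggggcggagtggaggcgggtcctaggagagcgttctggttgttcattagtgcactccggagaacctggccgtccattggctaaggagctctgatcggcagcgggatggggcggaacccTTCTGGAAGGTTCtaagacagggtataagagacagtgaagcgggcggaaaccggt
Hsph1, chr12:10427118-10427367, plus strand: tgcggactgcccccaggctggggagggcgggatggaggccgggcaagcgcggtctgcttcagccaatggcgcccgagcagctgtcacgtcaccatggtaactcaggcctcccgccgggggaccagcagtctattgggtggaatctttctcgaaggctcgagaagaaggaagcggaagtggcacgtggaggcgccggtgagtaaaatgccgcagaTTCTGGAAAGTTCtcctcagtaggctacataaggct
Hspe1, chr9:64084077-64084326, plus strand: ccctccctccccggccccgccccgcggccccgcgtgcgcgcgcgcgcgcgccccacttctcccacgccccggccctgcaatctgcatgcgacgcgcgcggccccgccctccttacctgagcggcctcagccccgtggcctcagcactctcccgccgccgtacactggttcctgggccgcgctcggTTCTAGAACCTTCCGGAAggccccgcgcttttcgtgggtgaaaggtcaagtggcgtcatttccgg
The motif occurs in the windows of 4 of 41 matched genes of the 5 chaperone lists (9.76%). It occurs in 33 of 8410 matched genes tested (0.392%) and in 164 of 27456 promoters in the table (0.597%). Hspa8 has 2 matches, Hsph1 has 1, Hspe1 has 2 that overlap, and Hspd1, which encodes the Hsp60 chaperonin, has 2. The windows of Hspb1, Dnajb1, Bag3 and Zfand2a hold no match, and Hspa1b and Hsp90aa1 were not among the matched genes. The match is a description of these letters and not evidence of binding in these samples.

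Of these 3 genes, Hspe1 was named after its values were seen. Hspe1, the Hsp10 lid of the mitochondrial chaperonin, had 15.56, 15.49, 15.37 and 14.49 in AMPH pools and 15.65, 15.58, 15.14 and 15.56 in EIH pools, a difference of -0.25 ± 0.25. Over the saline mean it was 1.55 ± 0.22 higher in AMPH and 1.80 ± 0.22 higher in EIH. The corresponding values were 2.31 and 2.78 for Hsph1 and 0.17 and 0.38 for Hspa8. AMPH and EIH are set against the same saline pools here, so these pairs of values are not independent.

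The cytosolic Hsp90 genes were bounded more closely than Hspa1b. Hsp90aa1, the inducible cytosolic Hsp90, had 14.65, 14.52, 14.70 and 13.79 in AMPH pools and 14.72, 14.72, 14.05 and 14.56 in EIH pools. Its difference was -0.10 ± 0.24, and the interval of -0.67 to 0.47 lies within 2-fold, while the excess over saline was 1.92 in AMPH and 2.02 in EIH. Hsp90ab1, the constitutive form, differed by -0.12 ± 0.21, and Fkbp4, a cochaperone of steroid receptor complexes, by -0.16 ± 0.24. In the list of Hsp90 and cochaperones 8 of 9 genes had an interval within 2-fold (88.9%), 0 had an unadjusted p under 0.05, and the median was -0.10. All 9 lie in the highest level class, where 96% of all genes had such an interval. Among chaperonins 11 of 12 lay within 2-fold, with a median of 0.01. Of the 10 chaperonin genes in the highest level class 9 lay within 2-fold. For their level, neither list was bounded more closely than other genes.

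The small heat shock proteins had wide intervals. Hspb1, the Hsp27 that binds unfolding proteins, had 15.72, 15.63, 15.77 and 13.30 in AMPH pools and 15.97, 15.71, 14.97 and 15.65 in EIH pools, and only AMPH replicate 4 stood clearly lower. Its difference was -0.47 ± 0.57, with most values near the top of the scale. Zfand2a, a heat-induced partner of the proteasome, differed by -0.71 ± 0.38 and the muscle-type Hspb6 by 0.54 ± 0.20 (adjusted p = 0.718). In this list 1 of 7 genes lay within 2-fold (14.3%, against 69.4% of all genes), and the median was -0.21. At an unadjusted p under 0.05, 1 was higher in AMPH (14.3%, against 3.38% of all genes).

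Most cochaperones of Hsp70 had values below 0. Dnajb1, the main inducible Hsp40, had 10.94, 11.27, 13.15 and 11.32 in AMPH pools and 13.20, 12.95, 10.36 and 13.32 in EIH pools. In AMPH 1 pool of 4 reached the level that 3 of 4 EIH pools had, and the difference was -0.79 ± 0.77. Bag3, which links Hsp70 to autophagy, had 10.73, 10.25, 11.06 and 8.57 in AMPH pools and 10.89, 12.28, 10.15 and 11.55 in EIH pools. Its difference was -1.07 ± 0.64 (adjusted p = 0.790), and over saline it was 2.34 higher in AMPH and 3.40 higher in EIH. Of the 11 Hsp40 and Bag genes 8 were below 0, and 3 were lower at an unadjusted p under 0.05, against 3.54% of all genes, with a median of -0.30.

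Those 3 genes encode J-domain proteins that deliver clients to Hsp70. Dnaja2 had 10.59, 10.57, 10.40 and 10.65 in AMPH pools and 10.78, 10.81, 10.85 and 10.77 in EIH pools, without overlap, a difference of -0.25 ± 0.09 (adjusted p = 0.675). Dnajb6 differed by -0.35 ± 0.12 without overlap, while its second probe differed by 0.32 ± 0.10 in the opposite direction, so no direction holds for this gene. Dnaja1 had 14.04, 14.21, 14.22 and 13.76 in AMPH pools and 14.43, 15.37, 14.17 and 14.68 in EIH pools, a difference of -0.61 ± 0.26, and it was 0.73 over saline in AMPH and 1.33 over saline in EIH. Leaving out a pool changed the number of genes lower at this level to between 1 and 4, and without AMPH replicate 4 and EIH replicate 3 together it was 2. Hsf1, the heat shock factor itself, differed by 0.08 ± 0.11.

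**Figure D3:**
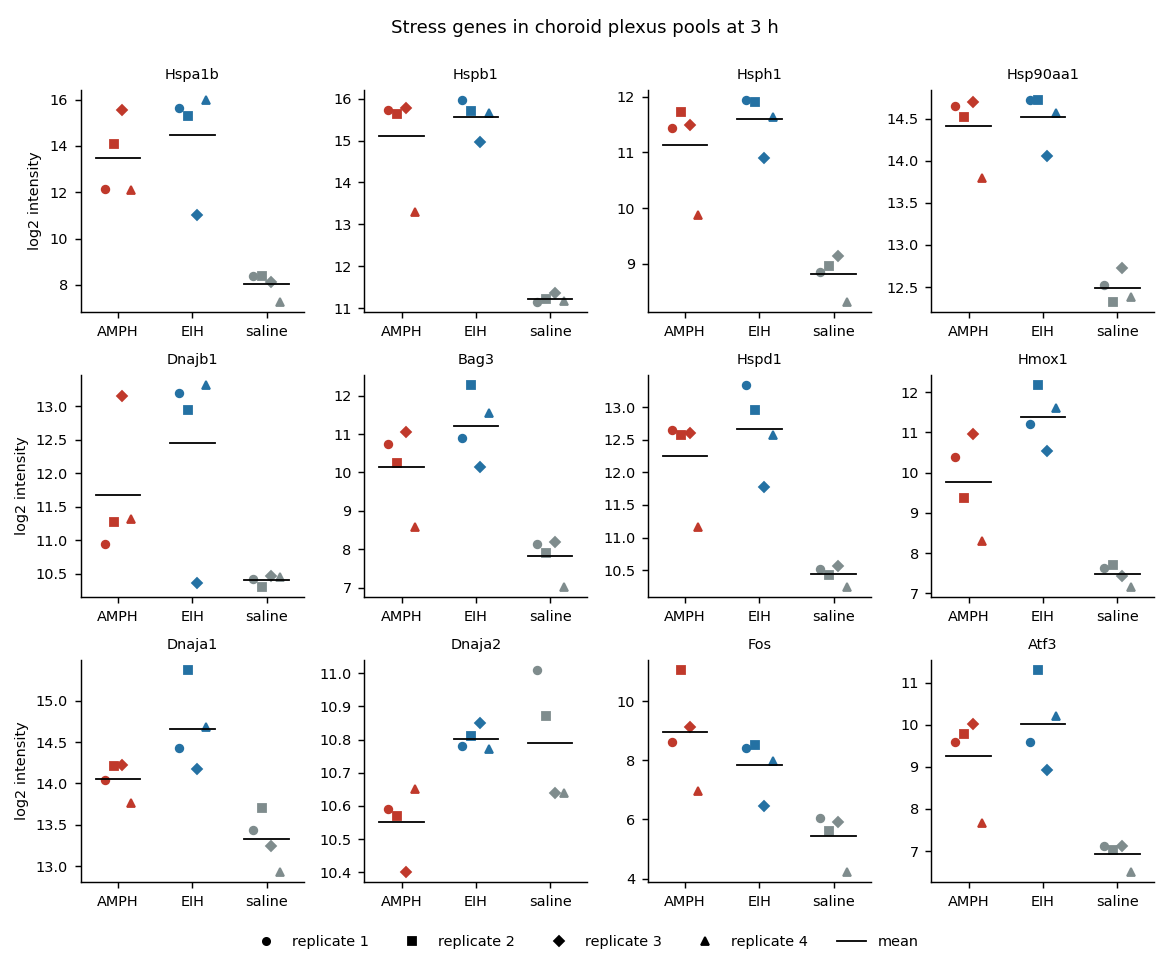
Log2 intensity (vertical axis) of 12 stress genes in each AMPH, EIH and saline pool at 3 h, with a line at each group's mean and 1 symbol per replicate. Most AMPH and EIH pools lie above saline, AMPH replicate 4 and EIH replicate 3 are often the lowest of their groups, and among these genes AMPH and EIH do not overlap for Dnaja2.

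Among genes of oxidative stress, the value for heme oxygenase 1 was lower in AMPH. Hmox1, which degrades heme and is induced by heat and oxidants, had 10.40, 9.37, 10.95 and 8.31 in AMPH pools and 11.21, 12.18, 10.53 and 11.61 in EIH pools. Only AMPH replicate 3 lay above the lowest EIH pool. The difference was -1.62 ± 0.61, which is 0.325-fold with an interval of 0.122 to 0.862, at an unadjusted p of 0.0292 and an adjusted p of 0.718. Over saline it was 2.28 ± 0.52 higher in AMPH and 3.90 ± 0.52 higher in EIH. Srxn1, the sulfiredoxin that repairs peroxiredoxins, had 5.46, 4.90, 4.74 and 4.70 in AMPH pools and 5.74, 5.83, 5.72 and 5.23 in EIH pools, near the low end of the scale, a difference of -0.68 ± 0.21. Mt1, the metal-binding metallothionein, differed by -0.37 ± 0.61. Hmox1 and Srxn1 were the 2 of 14 genes of this list at an unadjusted p under 0.05, both lower (14.3%, against 3.54% of all genes), the median was -0.16, and 10 genes lay within 2-fold. Leaving out 1 pool gave 1 to 3 lower genes.

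The values of the leading ER chaperones rest on 1 or 2 pools each. Hspa5, the BiP that guards protein folding in the ER, had 15.99, 15.98, 15.99 and 14.42 in AMPH pools and 8.93, 15.98, 15.52 and 15.98 in EIH pools, so the difference of 1.49 ± 1.57 rests on EIH replicate 1, and 5 of the 8 pools are at the top of the scale. Saline replicate 1 was low as well, at 9.16, beside 14.57 to 14.92 in the other saline pools. Hsp90b1, the ER Hsp90, had 14.86, 14.86, 10.44 and 10.43 in AMPH pools and 14.76, 14.80, 14.81 and 14.81 in EIH pools, a difference of -2.15 ± 1.14 that rests on AMPH replicates 3 and 4, while its other probe differed by -0.29 ± 0.39. Pdia4, a disulfide isomerase, had 10.68, 10.72, 9.91 and 8.78 in AMPH pools and 10.80, 10.82, 10.54 and 10.96 in EIH pools, a difference of -0.76 ± 0.42. Ddit3, the CHOP factor of prolonged ER stress, differed by -0.07 ± 0.33. Of 21 ER stress genes 15 were below 0, 0 had an unadjusted p under 0.05, 13 lay within 2-fold and the median was -0.11.

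Immediate early genes, which cells switch on within minutes of a stimulus, had values on both sides of 0, most with wide errors. Fos had 8.61, 11.05, 9.13 and 6.97 in AMPH pools and 8.42, 8.52, 6.46 and 7.99 in EIH pools, with the highest value in AMPH replicate 2. Its difference was 1.10 ± 0.86 (adjusted p = 0.846). The zinc finger factor gene Egr1 differed by 0.53 ± 0.80, Junb by 0.28 ± 0.60, and the orphan nuclear receptor genes Nr4a1 and Nr4a2 by 0.41 ± 0.78 and 0.51 ± 0.36. In the other direction stood Atf3, a factor of several stress pathways, at -0.75 ± 0.66, Jun at -0.83 ± 0.54 and Jund at -0.48 ± 0.20. Jun had 8.93, 8.83, 10.33 and 8.64 in AMPH pools and 10.22, 10.28, 8.68 and 10.85 in EIH pools, so that AMPH replicate 3 and EIH replicate 3 each sat at the level of the other group. Of 26 genes 1 was lower at an unadjusted p under 0.05 (Jund), which is 3.85%, near the 3.54% of all genes. In this list 15 were above 0, 6 lay within 2-fold and the median was 0.04. That median ran from -0.16 to 0.29 on leaving out 1 pool, so the list has no settled direction.

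Genes tied to the drug's own messengers were mostly near the low end of the scale. Adra1a, an alpha-1 adrenergic receptor, had 5.25, 3.47, 5.62 and 5.20 in AMPH pools and 4.15, 3.37, 3.86 and 3.64 in EIH pools, with AMPH replicate 2 at the EIH level, a difference of 1.13 ± 0.46 (adjusted p = 0.718). Drd1, a dopamine receptor, had 4.73, 4.49, 4.83 and 5.11 in AMPH pools and 4.29, 4.42, 3.58 and 3.79 in EIH pools, without overlap, a difference of 0.77 ± 0.22 (adjusted p = 0.655). Htr2c, the serotonin receptor that the choroid plexus is known for, lay higher on the scale and differed by -0.14 ± 0.16, with an interval of -0.52 to 0.23. Of 23 genes of monoamine receptors and enzymes 2 were higher at an unadjusted p under 0.05 (8.7%, against 3.38% of all genes). In that list 1 was lower (4.35%, against 3.54% of all genes), and the median was 0.01. For 17 targets of cAMP and CREB, the pathway below several of these receptors, 0 genes had an unadjusted p under 0.05 and the median was 0.14. The CREB site TGACGTCA lies within 250 bases before the start of 2 of 16 of those genes (12.5%) and of 4 of 17 immediate early genes (23.5%). It lies there in 209 of 8410 matched genes tested (2.49%) and in 1.7% of all promoters of the table.

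Of 21 glucocorticoid targets, which report the adrenal stress response, 12 had an interval within 2-fold (57.1%, against 69.4% of all genes). Fkbp5, a feedback inhibitor of the receptor, had 9.51, 9.56, 9.30 and 9.19 in AMPH pools and 9.47, 9.36, 8.87 and 9.24 in EIH pools, a difference of 0.16 ± 0.16 within 2-fold. Sgk1, a kinase that regulates sodium transport, differed by -0.21 ± 0.19, Tsc22d3 (GILZ) by -0.29 ± 0.14 and the clock gene Per1 by 0.08 ± 0.28. Hif3a, a target of the receptor in this list, had 5.57, 5.74, 6.57 and 5.27 in AMPH pools and 5.25, 4.88, 4.94 and 5.11 in EIH pools, a difference of 0.74 ± 0.27 without overlap. In this list 2 were higher at an unadjusted p under 0.05 (9.52%, against 3.38% of all genes) and 0 lower, and the median was 0.09.

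A few well measured genes stood apart between the groups by less than 2-fold. Usp2, a deubiquitinase whose transcript follows the clock and glucocorticoids, had 11.36, 11.49, 11.51 and 11.42 in AMPH pools and 10.99, 10.84, 10.96 and 11.09 in EIH pools. The groups were tight and did not overlap, and the difference was 0.47 ± 0.09, or 1.39-fold with an interval of 1.21 to 1.6 (unadjusted p = 0.00073, adjusted p = 0.652). Saline pools lay at 10.55 to 10.94, below every AMPH pool. Cdkn1a, the p21 inhibitor that halts the cell cycle, had 12.51, 12.18, 12.46 and 11.76 in AMPH pools and 11.45, 11.59, 11.67 and 11.67 in EIH pools, a difference of 0.63 ± 0.17 without overlap. Ccng1, another p53 target, had 12.50, 12.55, 12.19 and 12.46 in AMPH pools and 11.80, 12.07, 12.11 and 12.15 in EIH pools, a difference of 0.39 ± 0.12 without overlap. These were the 2 of 18 genes of the p53 and apoptosis list at an unadjusted p under 0.05, both higher (11.1%, against 3.38% of all genes), while 9 genes lay above 0 and the median was 0.03. Ccnd1, the cyclin that drives entry into the cycle, had 8.96, 8.94, 9.10 and 8.92 in AMPH pools and 9.72, 9.49, 9.25 and 9.47 in EIH pools, a difference of -0.50 ± 0.11, and its second probe differed by -0.60 ± 0.15. The adjusted p by limma was 0.655 for each of Cdkn1a, Ccng1 and Ccnd1. In the list of 21 cell cycle genes 1 was higher at an unadjusted p under 0.05 (4.76%, against 3.38% of all genes). In the same list 2 were lower (9.52%, against 3.54% of all genes), and the median was -0.05. The kinase gene Aurkb, near the low end of the scale, was higher in AMPH by 0.89 ± 0.24 without overlap.

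Chemokine genes spread widely between pools. Ccl2, which draws monocytes, had 9.39, 11.16, 7.84 and 7.89 in AMPH pools and 9.70, 10.69, 8.42 and 8.59 in EIH pools, a difference of -0.28 ± 0.84, and Cxcl1, which draws neutrophils, differed by -0.25 ± 1.10. Cxcl1 was 4.09 higher than saline in AMPH and 4.33 higher in EIH. Cxcl12, made by stromal cells, had 9.30, 9.50, 8.83 and 9.17 in AMPH pools and 9.48, 10.92, 9.93 and 10.55 in EIH pools, a difference of -1.02 ± 0.32, but its second probe differed by -0.14 ± 0.20. Ccl4 had 4.77, 5.07, 4.80 and 5.55 in AMPH pools and 5.51, 6.02, 5.65 and 6.16 in EIH pools, a difference of -0.79 ± 0.22. Of 16 chemokine genes 13 were below 0, 2 (Ccl4 and Cxcl12) were lower at an unadjusted p under 0.05 (12.5%, against 3.54% of all genes), the median was -0.39 and 2 lay within 2-fold. Among cytokines, Il6 differed by 0.53 ± 0.69 and Il1b by -0.02 ± 0.40. The list of 19 cytokines and mediator enzymes had 1 gene higher and 1 lower at that level, with a median of -0.01. Each is 5.26%, against 3.38% higher and 3.54% lower of all genes. The lower one was the growth factor gene Csf2, at -1.26 ± 0.38 near the low end of the scale.

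The values of 4 neutrophil genes lay higher in every AMPH pool than in any EIH pool. S100a8, a calcium-binding protein abundant in neutrophils, had 8.25, 7.61, 7.55 and 7.32 in AMPH pools and 6.01, 6.79, 6.89 and 6.32 in EIH pools. All AMPH pools were higher, by 1.18 ± 0.26 or 2.27-fold with an interval of 1.48 to 3.48 (unadjusted p = 0.00234, adjusted p = 0.655), and its other 2 probes differed by 0.96 ± 0.38 and 2.29 ± 0.33. Saline pools spread from 3.46 to 7.31 for this gene, so saline replicate 1 reached the lower AMPH pools. S100a9, its partner in calprotectin, was named after its values were seen: it had 8.31, 7.98, 7.56 and 7.55 in AMPH pools and 6.05, 7.38, 7.37 and 6.92 in EIH pools, a difference of 0.92 ± 0.33. Mmp9, a matrix protease of neutrophil granules, had 4.73, 4.86, 4.80 and 5.08 in AMPH pools and 3.76, 4.22, 4.56 and 3.79 in EIH pools, near the low end of the scale, a difference of 0.78 ± 0.20. The neutrophil defensin gene Np4 differed by 0.35 ± 0.10 without overlap, while its second probe, near the low end of the scale and with 7 values, differed by -0.78 ± 0.45.

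These 4 were the genes of 19 in the neutrophil list that were higher at an unadjusted p under 0.05 (21.1%, against 3.38% of all genes), 0 were lower, and the median was 0.14. The same 4 of 17 genes with all values did not overlap between the groups, against 2.19% of all genes. Lcn2, a granule protein that other cells also make under stress, differed by -0.33 ± 0.55. Leaving out any 1 pool gave 3 to 5 higher genes and a median of 0.14 to 0.33. The median was 0.33 without EIH replicate 2 or 3 and 0.29 without AMPH replicate 3. Leaving out AMPH replicate 4 and EIH replicate 3 together gave 5 higher genes and 1 lower. List scores were 0.81, 0.61, 0.35 and 0.42 in AMPH pools and 0.15, 0.35, 0.41 and 0.31 in EIH pools, so the scores of the list overlapped. In blood at 3 h the same list had a median AMPH minus EIH difference of 0.01, and S100a8 differed there by 0.59 ± 0.21.

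In the list of NK and cytotoxic lymphocytes most values lay below 0. Gzmm, a granzyme, had 6.51, 6.55, 6.20 and 6.19 in AMPH pools and 6.73, 8.10, 7.05 and 8.03 in EIH pools, without overlap, a difference of -1.12 ± 0.33 (adjusted p = 0.655). Nkg7, a granule membrane protein, had 5.46, 5.74, 5.21 and 4.84 in AMPH pools and 5.69, 5.69, 6.54 and 5.97 in EIH pools, a difference of -0.66 ± 0.26. The NK receptor genes Klrb1a and Ncr3 lay near the low end of the scale and differed by -1.43 ± 0.44 and -1.55 ± 0.49. Of 22 genes 16 were below 0 and these 4 were lower at an unadjusted p under 0.05 (18.2%, against 3.54% of all genes), with 0 higher and a median of -0.40. The scores per pool were -0.69, -0.66, -0.85 and -0.91 in AMPH pools and -0.39, -0.35, -0.27 and -0.39 in EIH pools. All 4 AMPH scores lay below all EIH scores, while saline pools ran from -0.35 to 0.48. The count of 4 became 3 to 6 on leaving out 1 pool. On leaving out AMPH replicate 4 and EIH replicate 3 together, 1 gene was lower and 2 were higher. Among 17 T cell genes 2 were lower at an unadjusted p under 0.05 (11.8%, against 3.54% of all genes), with a median of -0.19. They were Cd8b, by -0.54 ± 0.19, and Cd7, by -0.26 ± 0.10 (0.12 ± 0.74 at its second probe). In the monocyte and macrophage list Cd83, an activation marker, had a difference of -0.46 ± 0.15 (0.06 ± 0.31 at its second probe), and 14 of 18 genes of that list were below 0, with a median of -0.23.

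**Figure D4:**
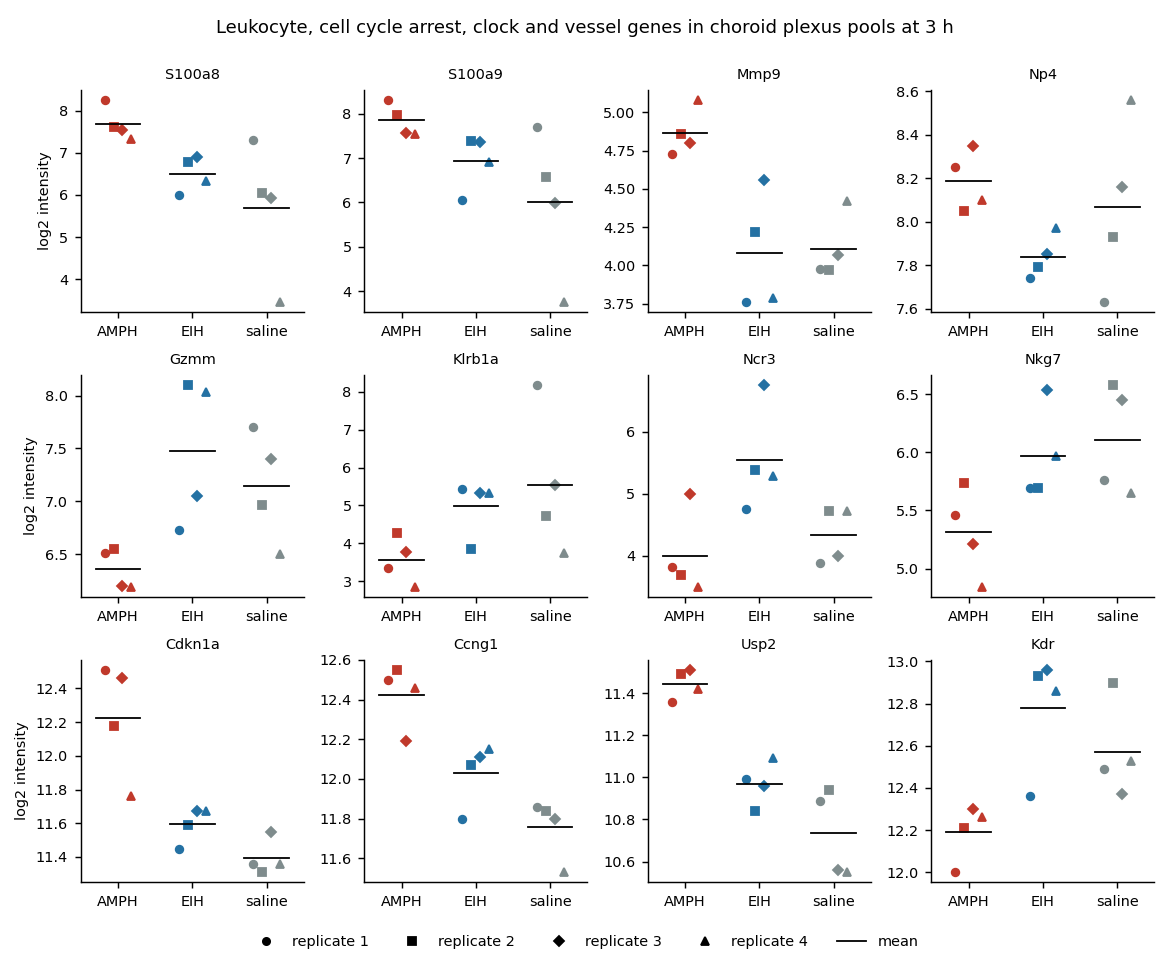
Log2 intensity (vertical axis) of 12 leukocyte, cell cycle, clock and vessel genes in each AMPH, EIH and saline pool at 3 h, with a line at each group's mean and 1 symbol per replicate. AMPH lies wholly above EIH for S100a8, S100a9, Mmp9, Np4, Cdkn1a, Ccng1 and Usp2 and wholly below it for Gzmm and Kdr, and saline S100a8 and S100a9 spread widely.

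Most genes of the endothelium and stroma lists had values below 0, and among the AMPH and EIH pools 2 EIH pools were high in stromal genes. Kdr, the endothelial VEGF receptor, had 12.00, 12.21, 12.30 and 12.26 in AMPH pools and 12.36, 12.93, 12.96 and 12.86 in EIH pools, a difference of -0.59 ± 0.15 without overlap (adjusted p = 0.655). Vcam1, an adhesion molecule for leukocytes, had 10.25, 10.80, 9.87 and 10.81 in AMPH pools and 10.90, 11.81, 11.01 and 11.10 in EIH pools, a difference of -0.77 ± 0.28 without overlap. Of 17 endothelium genes 13 were below 0, 2 were lower at an unadjusted p under 0.05 (11.8%, against 3.54% of all genes) and the median was -0.22. Without AMPH replicate 4 the count of lower genes was 6. Of 8 endothelial adhesion genes 5 were below 0, 1 (Vcam1) was lower at that level (12.5%, against 3.54% of all genes), and the median was -0.02. Slc13a3, a dicarboxylate transporter of the stroma list, had 9.12, 8.56, 8.51 and 8.53 in AMPH pools and 8.75, 11.96, 8.56 and 11.79 in EIH pools. Its difference of -1.59 ± 0.84 therefore came from EIH replicates 2 and 4. Gjb2, a gap junction protein of the meninges, had 8.13, 8.08, 7.81 and 8.55 in AMPH pools and 8.46, 10.76, 9.43 and 9.40 in EIH pools, a difference of -1.37 ± 0.45. Saline pools had 10.66, 9.68, 10.83 and 10.11 for Gjb2, above every AMPH pool, and 11.06, 9.46, 10.33 and 8.66 for Slc13a3.

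Of 20 genes of the stroma and meninges list 16 were below 0 and 1 was lower at an unadjusted p under 0.05 (Gjb2), which is 5%, near the 3.54% of all genes, with a median of -0.28. Scores of this list were -0.20, -0.24, -0.43 and -0.39 in AMPH pools and -0.43, 0.61, -0.25 and 0.29 in EIH pools. Saline pools had 0.26, -0.16, 0.30 and -0.41. Among the AMPH and EIH pools, EIH replicates 2 and 4 were thus the high ones, while saline replicates 1 and 3 lay near EIH replicate 4. EIH replicate 2 also led the mural cell list at 0.95, where the other 7 AMPH and EIH pools lay at -0.33 to 0.12. Without EIH replicate 2 the median of the stroma list was -0.12, and the count of lower genes was 6 without EIH replicate 1 and 3 without EIH replicate 3. Gzmm, Cxcl12, Mrc1 and Slc22a6 were also highest in EIH replicates 2 and 4. Whether the content of stroma in a pool has a part in these differences was not tested.

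The difference was bounded within 2-fold for most epithelial genes. In the choroid plexus epithelium list 26 of 27 genes had such an interval, but 4 of them (Ttr, Igf2, Enpp2 and Sostdc1) lie at the top of the scale, where a change could not have been seen. Of the other 23 genes 22 were within 2-fold, all but Slc31a1. Of these 23 genes 17 lie in the highest level class, all of them within 2-fold, against 96% of all genes of that class. The median difference of the list was 0.06, and no gene lay outside -0.37 to 0.59. Kl, the anti-ageing hormone and FGF coreceptor, had 11.64, 11.65, 11.79 and 11.51 in AMPH pools and 11.72, 11.50, 11.37 and 11.77 in EIH pools, a difference of 0.06 ± 0.12. Aqp1, the apical water channel, differed by 0.13 ± 0.11, Kcnj13 by 0.20 ± 0.12, Slc4a5, an apical bicarbonate transporter, by 0.12 ± 0.24, and the tight junction gene Cldn1 by -0.19 ± 0.13. The interval reached at most 0.68 from 0 for these genes. The fluid secretion list had 22 of 23 genes within 2-fold (95.7%, against 69.4% of all genes). In the highest level class it has 15 genes, all within 2-fold, against 96% of all genes of that class. Its kinase gene Stk39 (SPAK), which phosphorylates chloride cotransporters, differed by 0.36 ± 0.15 without overlap.

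Slco1c1, the transporter that takes up thyroxine, had 14.58, 14.35, 14.47 and 14.07 in AMPH pools and 13.75, 13.93, 13.80 and 14.05 in EIH pools. AMPH pools were all higher, by 0.49 ± 0.13 or 1.40-fold with an interval of 1.13 to 1.74 (adjusted p = 0.655), and saline had a mean of 13.54. Slc31a1, the copper importer, had 8.57, 8.65, 8.57 and 8.72 in AMPH pools and 7.75, 7.89, 7.89 and 8.62 in EIH pools, a difference of 0.59 ± 0.19 with EIH replicate 4 at the AMPH level. Proteasome (31 of 31), respiratory chain (30 of 30) and fatty acid oxidation genes (18 of 18) all lay within 2-fold, against 69.4% of all genes. Of these, 30 proteasome, 29 respiratory chain and 8 fatty acid oxidation genes lie in the highest level class, where 96% of all genes had such an interval. Another respiratory chain gene lies at the top of the scale, where a change could not have been seen.

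**Figure D5:**
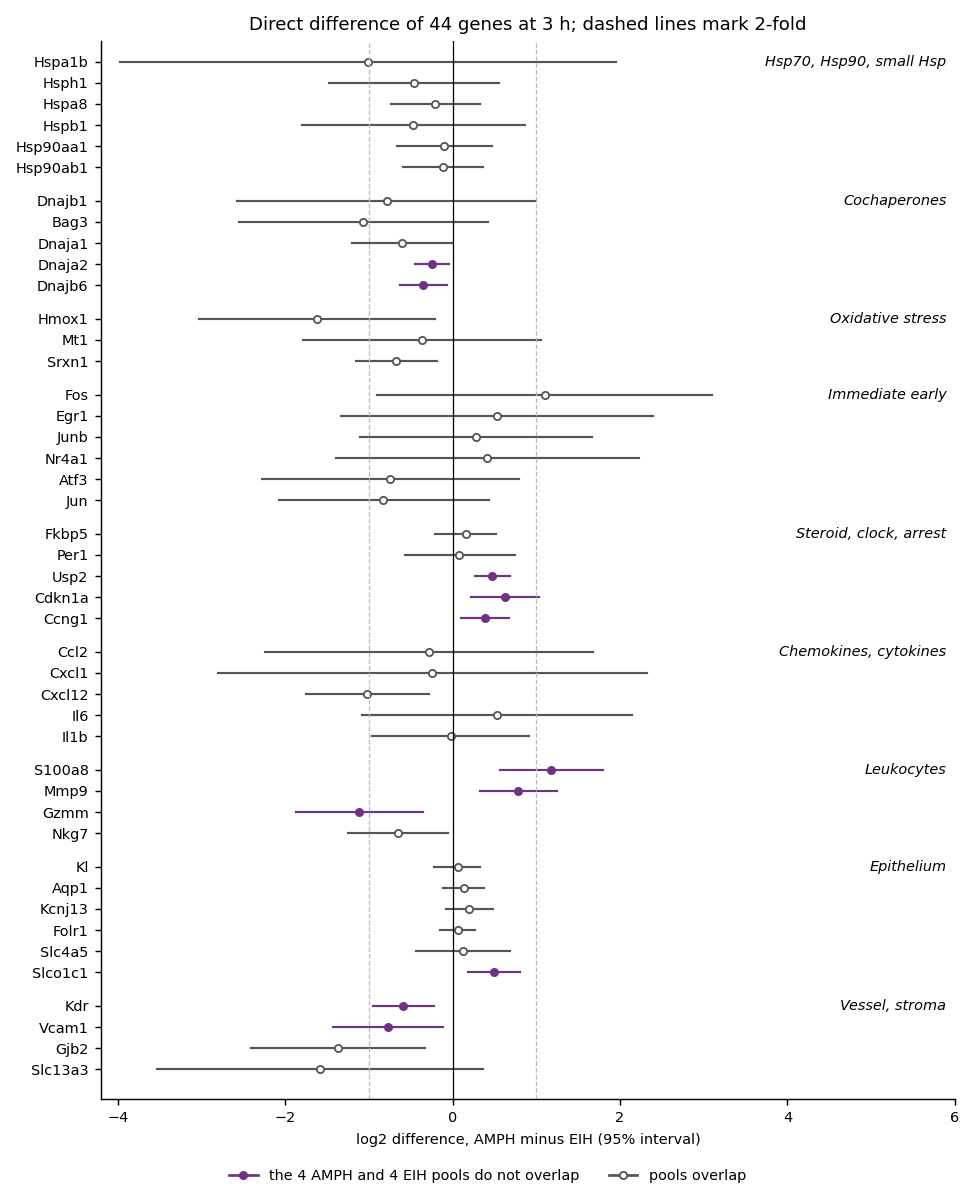
Log2 difference (AMPH minus EIH) with its 95% interval for 44 genes grouped by role, filled where the 4 AMPH and 4 EIH pools do not overlap. Epithelial intervals lie within the dashed 2-fold lines, while intervals of Hspa1b, Cxcl1 and Fos span more than 4-fold.

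The genes with the largest moderated t among those without overlap are a description, since the values chose them. Of 24 such genes, 11 lay in the lowest level class. Cadm3, a neural cell adhesion molecule, had 5.81, 6.33, 6.08 and 5.72 in AMPH pools and 4.15, 4.88, 4.51 and 4.70 in EIH pools, a difference of 1.42 ± 0.20. Nmur2, a neuromedin U receptor, had 4.77, 4.82, 4.80 and 4.84 in AMPH pools and 5.51, 5.78, 5.81 and 5.51 in EIH pools, a difference of -0.85 ± 0.10. Better measured were Nr1i2, the xenobiotic receptor PXR, with 9.06, 9.28, 9.22 and 8.84 in AMPH pools and 8.05, 8.46, 8.57 and 8.15 in EIH pools, and Snx7, a sorting nexin, with 11.30, 11.54, 11.14 and 11.23 in AMPH pools and 11.72, 11.77, 11.82 and 12.08 in EIH pools. Nr1i2 differed by 0.79 ± 0.16 and Snx7 by -0.54 ± 0.12. The lipoprotein gene Apoa2 (0.57 ± 0.11) and Parg, which removes poly(ADP-ribose) (-0.40 ± 0.08), were of this group. So were the helicase gene Dhx36 (-0.65 ± 0.12), whose other 2 probes differed by -0.34 ± 0.14 and -0.03 ± 0.10, and the signalling gene Disp2 (0.84 ± 0.14), whose second probe differed by -0.20 ± 0.36. Their adjusted p ranged from 0.216 to 0.655 by limma.

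Some probes jumped between levels from array to array. Piwil1, a germ line gene of the piRNA pathway and the gene with the smallest adjusted p (0.0616), was blank in AMPH replicates 1 and 2, had 14.67 and 14.19 in replicates 3 and 4, and had 2.78, 4.31, 4.94 and 3.20 in EIH pools. Another 14 genes likewise had AMPH replicates 3 and 4 both over 4 log2 units from the median of the other 6 pools, and for 9 of the 15 saline replicate 2 was over 2 units off in the same direction. Hsp90b1 above is one of the 15. Over all genes with 8 values, 43 genes held 74 values over 4 units from the median of the other 7 pools, 20 of them in AMPH replicate 4 and 14 in EIH replicate 3.

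A second set of probes was found in blood, where replicates 2 and 3 of each of the 6 groups differed from replicates 1 and 4 at an adjusted p under 0.05 for 24 of 11040 probes by limma, while the other 2 ways of splitting the replicates in pairs gave 0. This was found after the data were seen. In 12 of these probes the sets did not overlap, with differences of 2.51 to 7.43. A score from the 12 probes, 0 for one level and 1 for the other, was -0.36 to -0.02 in AMPH pools and 0.22, 0.14, 1.18 and -0.04 in EIH pools. EIH replicate 3 thus sat at the level of 1, with saline replicates 3 and 4 at 1.07 and 1.14, and the other AMPH and EIH pools lay near 0. Rps9, a ribosomal protein gene in this set, had 7.42, 6.40, 3.77 and 3.91 in AMPH pools and 6.70, 9.41, 12.84 and 9.79 in EIH pools, a difference of -4.31 ± 1.38, while the median of 56 cytosolic ribosomal protein genes was 0.02. The sets of probes are not separate: Rps9, Slc22a17 and Sumo2 are also among the 15 genes above with AMPH replicates 3 and 4 far off. With the score as a covariate over all 20 choroid plexus pools, 16 of 10201 genes were associated with it at an adjusted p under 0.05, and 1 gene, Piwil1, was called between AMPH and EIH. Macrod1, Myog and Slco1b2, which were called without EIH replicate 4, were among the 16. Gata1, an erythroid factor with 8.00, 7.85, 8.33 and 7.80 in AMPH pools and 5.25, 3.37, 4.12 and 7.55 in EIH pools, also had EIH replicate 4 near the AMPH level, and it was not among the 16. No label names these sets of arrays.

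At 1 day 0 of 10204 genes (0%) were called between AMPH and EIH in choroid plexus by limma, with 339 at an unadjusted p under 0.05. In blood at 3 h 1 of 10068 (0.00993%) was called, the protease gene Mmp3, with 788 at that level. The 1 day EIH pools are titled as controls, while their source and treatment labels read EIH, and they were used as EIH. By their titles EIH replicates 2 and 3 of 1 day list a rat number in common, and so do replicates 3 and 4. They were fitted as independent pools here and in the test between times, so their scatter may be understated. AMPH replicate 2 of 1 day stood apart from the other 1 day pools: Folr1 was at 10.66 in it, at 14.09 to 14.23 in the other AMPH pools and at 13.59 to 14.02 in EIH pools, while Mrc1, a macrophage marker, was at 11.60 in it, at 7.30 to 8.44 in the other AMPH pools and at 7.54 to 8.95 in EIH pools. Without it 0 of 10076 genes were called at 1 day, with 508 at an unadjusted p under 0.05.

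Hspa1b had 12.67, 10.95, 10.18 and 15.06 in AMPH pools of 1 day and 10.06, 9.70, 9.17 and 9.03 in EIH pools. AMPH replicate 4 of 1 day was the highest, and it was kept in both fits that follow. Hspa1b differed by 2.73 ± 0.97 at 1 day, and by 3.15 ± 1.04 without AMPH replicate 2 of 1 day. Beside these stood -1.01 ± 1.27 for Hspa1b at 3 h and -0.62 ± 0.68 in blood. The test of its change between times gave an adjusted p of 0.945. S100a8 had 7.51, 10.95, 7.58 and 7.26 in AMPH pools of 1 day and 6.72, 7.73, 6.16 and 6.16 in EIH pools, a difference of 1.63 ± 0.83, or 0.76 ± 0.39 without that pool. Cdkn1a had 11.94, 9.40, 11.60 and 12.27 in AMPH pools of 1 day and 11.21, 11.66, 11.51 and 11.39 in EIH pools, a difference of -0.14 ± 0.58, or 0.50 ± 0.19 without that pool, so its direction at 1 day rests on 1 pool. Across genes, which are not independent, the AMPH minus EIH difference in choroid plexus at 3 h had a Pearson correlation of -0.0842 with that at 1 day (10130 genes), and of -0.0515 without AMPH replicate 2 of 1 day, where Spearman's rho was 0.102 (10020 genes). With the difference in blood at 3 h the Pearson correlation was -0.00419 (9988 genes). No array is in common, but rats are.

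The 5 chaperone lists had medians below 0 in the samples labelled as blood. The median AMPH minus EIH difference in blood at 3 h was -0.54 for Hsp70 and Hsp110, -0.71 for Hsp90, -0.32 for Hsp40 and Bag and -0.60 for small heat shock proteins, beside 0.00, -0.10, -0.30 and -0.21 in choroid plexus. For chaperonins it was -0.39 in blood, beside 0.01 in choroid plexus. Over all genes it was 0 in blood and 0.01 in choroid plexus. Single blood samples spread widely and overlapped. Hspa1b had 14.69, 15.95, 13.22 and 15.94 in blood of AMPH rats and 14.37, 15.94, 15.99 and 15.98 in blood of EIH rats. Hspb1 was at 8.64 in AMPH replicate 3 of blood and at 10.8 to 12.47 in the other AMPH rats. Medians without that rat were not computed. Tests of the difference itself called 3 of 10130 genes between times (0.0296%) and 3 of 9988 between tissues (0.03%), with 331 and 812 at an unadjusted p under 0.05. Leaving out 1 of the 8 choroid plexus pools of 3 h gave 0 to 2 genes between times, with 0 without AMPH replicate 4, and 0 to 6 between tissues, with 6 without EIH replicate 4 and 0 without AMPH replicate 3 or 4 or EIH replicate 1, 2 or 3. Between times the count was 2 without AMPH replicate 2 of 1 day and 1 without EIH replicate 3 of 1 day, the pool that lists a rat number of AMPH replicate 2. The 6 rats with both tissues link 6 blood samples to 5 of the pools, and with linked arrays as a random block the count between tissues was again 3, for the same genes. The 3 genes between times were Piwil1 and 2 genes with few values near the low end of the scale, Serpini2 and Cd226. Between tissues they were Slc22a25, Agap3 and Rnd2. Agap3, a GTPase activating protein, had 8.28, 8.28, 8.21 and 8.24 in AMPH pools and 8.35, 8.34, 8.21 and 8.48 in EIH pools of choroid plexus. In blood it had 6.78, 7, 7.67 and 7.65 in AMPH rats and 5.38, 5.22, 4.2 and 4.39 in EIH rats, so the gap lay in blood. Rnd2 likewise differed by 0.06 ± 0.08 in choroid plexus and had lower values in blood of AMPH rats, at 7.01 to 7.67, than of EIH rats, at 8.58 to 8.74.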

How the data were processed

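Choroid plexus RNA (Tri Reagent, Agilent Quick Amp labelling with Cy3, per the labels' protocols) was measured on 1-colour arrays. The deposited values are linear intensity values made by the authors. For their normalization, background correction, blank rule and scanner software, the sources used here say nothing. Medians and 75th percentiles nearly coincide within the choroid plexus arrays of 3 h, and they differ from those of 1 day, so no level is compared across times. Columns from outside the series numbered 0.

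Intensities were taken to log2 and blank cells stayed missing. Of 14055 probes, 12926 had 1 gene symbol, 1129 had none and 0 had several. The probe with the highest mean over 44 arrays stood for each of 10412 genes (2210 genes have several). Limma 3.58.1 (R 4.3.3, with the package data.table at 1.17.8) was fitted to the 8 pools, with a mean per group, for genes with at least 2 values per group. Interactions used 16 arrays. Errors in the text are standard errors. Pools were numbered in accession order. RefSeq promoters matched 8410 of the genes tested by symbol. Steps were tested on simulated data. Python 3.11.15 with pandas 2.3.3 and matplotlib 3.10.9 drew the figures.

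Named genes were the 12 highest and 12 lowest moderated t without overlap, a set of marker genes, up to 3 genes per list with the smallest p, and up to 4 genes per interaction. The text prints a part of them. The comparison, the lists and these rules were chosen with earlier results of these data known. Alternatives covered scaling, filters, probes, weights, other sets of pools and, added after the data were seen, the 2-level probe score, leaving out AMPH replicate 4 with EIH replicate 3, leaving out 1 day pools in doubt, and a random block for linked arrays (duplicateCorrelation).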

Additional observations from a re-analysis of the deposited data

Results flagged for a closer look

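Among 270 groups of 4 pools (AMPH or EIH at 3 h, log2 intensity of the genes examined), 28 held a pool far from the other 3, with a gap over 0.829 of the group's range. Chance flags about 1 in 20 groups. AMPH replicate 4 was the low pool for 11 genes: Ccl5 (4.89), Crem (9.22), Cxcl2 (5.62), Fkbp4 (10.59), Hspa5 (14.42), Hspb1 (13.30), Hspb6 (8.80), Hspd1 (11.17), Hsph1 (9.88), Hyou1 (11.94) and Nr4a2 (6.43). EIH replicate 3 was the low pool for Dnajb1 (10.36), Hspa1b (11.01), Nr4a1 (9.70), Nr4a2 (6.54) and Parg (7.5). EIH replicate 1 stood apart for Hspa5 (8.93) and Tsc22d3 (11.62) on the low side and Gnaq (6.44) on the high side. EIH replicate 2 was low for Klrb1a (3.85) and high for Klrk1 (5.55) and Sgk1 (12.95), and EIH replicate 4 was low for Hspa2 (8.89) and high for Slc31a1 (8.62). AMPH replicate 1 was high for Parg (7.30) and Slc13a3 (9.12), and AMPH replicate 3 was low for Gnaq (4.47) and high for Jun (10.33).

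Tests of a difference between differences passed for 6 genes by limma. Between 3 h and 1 day in choroid plexus the AMPH minus EIH difference changed by 11.94 for Piwil1 (adjusted p = 0.00111), -3.32 for Serpini2 (adjusted p = 0.029) and -2.81 for Cd226 (adjusted p = 0.0459). Between choroid plexus and blood at 3 h it differed by -2.42 for Slc22a25 (adjusted p = 0.0204), -2.57 for Agap3 and 1.35 for Rnd2 (adjusted p = 0.0366 for both).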

How the results depend on the processing

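No paired analysis was possible because AMPH and EIH pools share no rat and no replicate number in the labels; they were numbered in accession order. Choroid plexus and blood share rats, and with linked arrays as a replicate block (random, correlation -0.0259, added after the data were seen) the count between tissues was 3. The count of 0 genes between AMPH and EIH became 1 (Piwil1) without the lowest level class of genes, with intensities below 16 set to 16, with all 12 pools of 3 h, with all 20 choroid plexus pools and with the 2-level probe score, and it ran from 0 to 4 on leaving out 1 pool. The count of 3 between times became 1 without that class, 0 for genes with a value on every array 1 with an intensity trend and 1 without EIH replicate 3 of 1 day (added after the data were seen), and 0 to 2 on leaving out a 3 h choroid plexus pool. The count of 3 between tissues became 5 for genes with a value on every array, 0 with an intensity trend and 1 with array weights, and 0 to 6 on leaving out such a pool. The cause was not tested. Of the genes examined under 21 settings, 109 kept their sign throughout and 30 changed it in at least 1. Averaging over probes gave -0.02 for Dnajb6. Signals near the top of the scale, and the spread in the lowest level class, limit what can be seen.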
